A study of Mus musculus with 8 samples.

Results

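The killer lectin-like receptor genes, whose symbols begin with Klr, were described in the jejunum of 2 inbred mouse strains. All rows whose GENCODE M21 symbol starts with Klr were taken, which gave 30 of the 56941 genes in the count table, 26 of them protein coding and 4 pseudogenes, all on chromosome 6. The groups were naive C57BL/6 (B6) mice, with 4 libraries (replicates 2, 3, 4 and 5), and naive C3H/HeJ (C3H) mice, with 4 libraries (replicates 1, 3, 4 and 5). Per the labels, mice of 6 to 8 weeks of both strains shared cages for 8 weeks or longer before harvest, no group was treated, and every library carries batch 1. The labels do not say that each library is a separate mouse, so p-values measure only the spread between these libraries, which may be technical. A library held 37205896 to 58251332 counts, and 5 enterocyte genes (Fabp2, Apoa1, Alpi, Sis and Vil1) summed to 23400 to 38391 CPM (counts divided by TMM-scaled library size, on the usual CPM scale), so the markers of the labelled tissue were present.

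Klr genes encode C-type lectin-like receptors of natural killer (NK) cells, of many intraepithelial T cells and, for some members, of myeloid cells. Most sit in the natural killer gene complex, and they fall into families. Ly49 receptors (Klra) read classical class I histocompatibility molecules, NKR-P1 receptors (Klrb1) read Clec2 lectins, and CD94 (Klrd1) pairs with NKG2 chains (Klrc) to read the class I-like molecule Qa-1, encoded by H2-T23. NKG2D (Klrk1) binds stress-induced ligands and signals through DAP10 (Hcst). Inhibitory members carry a motif that recruits the phosphatase SHP-1 (Ptpn6), and activating members depend on adaptors such as DAP12 (Tyrobp). The number and kind of Ly49 copies differ between inbred strains, and the deposited reads of both strains were aligned to GRCm39, the reference genome of B6. What that alignment does to the C3H counts was not tested.

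Several members are close copies of each other, which bears on every count given here, and stretches in which they are alike are shown. Each is the 60-base coding window, within a single exon of every gene compared, with the fewest differences summed over the set. A few of the copies are printed, read 5′ to 3′ from the GENCODE M21 transcripts, and capitals mark differences from the set's first gene. Some pairs share identical coding runs that this choice does not show, of 94 bases for Klri1 and Klri2. Such runs were 62 bases for Klra3 and Klra9 and 60 for Klra6 and Klra9. Among the Ly49 genes the window lies at the start of the coding sequence, for Klra9 at chr6:130191242-130191301 (GRCm38, minus strand, exon 2).
Klra9: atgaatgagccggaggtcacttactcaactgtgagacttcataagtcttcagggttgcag
Klra3: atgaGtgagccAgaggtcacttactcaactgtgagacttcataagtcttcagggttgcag
Klra6: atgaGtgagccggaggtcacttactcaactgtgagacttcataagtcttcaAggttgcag
Klra5: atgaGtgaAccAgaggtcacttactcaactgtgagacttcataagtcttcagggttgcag
Klra7: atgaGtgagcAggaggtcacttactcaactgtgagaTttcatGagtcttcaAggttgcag
Over this window Klra3 and Klra6 differed from Klra9 at 2 bases, Klra5 at 3 and Klra7 at 5. Over whole coding sequences identity was 95.9% between Klra3 and Klra9 and 91.9% between Klra5 and Klra6, 2 neighbours whose counts went opposite ways.

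In the NKR-P1 set the window lies in exon 2, for Klrb1c at chr6:128785962-128786021 (GRCm38, minus strand), and in the NKG2 set near the end of the coding sequence, for Klrc1 at chr6:129674902-129674961 (GRCm38, minus strand, exon 6). The KLRI pair is shown because both genes were higher in C3H, and its window lies in exon 4, for Klri1 at chr6:129698867-129698926 (GRCm38, minus strand).
Klrb1c: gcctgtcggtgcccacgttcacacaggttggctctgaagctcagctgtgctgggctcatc
Klrb1a: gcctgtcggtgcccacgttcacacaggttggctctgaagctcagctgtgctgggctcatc
Klrb1b: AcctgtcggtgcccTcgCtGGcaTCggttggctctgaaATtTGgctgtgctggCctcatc
Klrc1: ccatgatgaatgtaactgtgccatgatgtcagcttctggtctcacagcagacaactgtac
Klrc2: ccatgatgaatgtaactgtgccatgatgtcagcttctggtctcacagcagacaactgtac
Klrc3: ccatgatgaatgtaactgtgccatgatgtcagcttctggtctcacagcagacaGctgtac
Klri1: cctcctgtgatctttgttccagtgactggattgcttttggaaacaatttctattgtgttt
Klri2: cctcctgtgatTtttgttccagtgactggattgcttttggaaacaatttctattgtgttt
Klrb1a and Klrb1c did not differ over this window, nor did Klrc1 and Klrc2, and Klrc3 and Klri2 each differed from the first gene of their set at 1 base. A read inside such a stretch can belong to more than 1 gene. Of all 50-base words in a gene's annotated transcripts, the share found in no other GENCODE M21 gene was 100% for Klrd1, Klrk1, Klrg1, Klrg2, Klrb1, Klrb1f, Klra2 and Klra17. It was 99.3% for Klra5, 97.4% for Klra6, 87.7% for Klra7 and 68.5% for Klra9, and 90.1%, 83.0% and 72.8% for Klrb1a, Klrb1c and Klrb1b. These shares do not rank likeness within a family. Most shared words of Klrb1b and Klrb1c lie in Gm44511, a gene model that overlaps both on the same strand and had 0 counts. All shared words of Klra7 lie in the pseudogene Klra13-ps, which also had 0 counts. The lowest share among detected genes was 61.4%, for Klrc1, whose shared words lie in Klrc2 and Klrc3. Values of Klrc1, Klrc2, Klrb1a, Klrb1b, Klrb1c, Klra3, Klra7 and Klra9 are therefore uncertain where the counting could split or drop reads, and how reads with several matches were counted is not given in the sources used here.

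With a detection limit of 20 counts summed over the 8 libraries, 23 of the 30 genes were detected: 8 of 14 Ly49 genes, all 6 NKR-P1 genes, 4 of 5 NKG2 and CD94 genes, and all 5 of Klre1, Klri1, Klri2, Klrg1 and Klrg2. Within B6 alone 22 genes reached 20 counts, and within C3H 18. The 7 genes below the limit were Klrc3, Klra4, Klra8 and Klra10, with 12, 5, 13 and 6 counts in all, and the pseudogenes Klra11-ps, Klra13-ps and Klra14-ps, with 0 in every library. Just inside the limit stood Klrc2, with 32 counts. The family is a small part of the tissue's RNA: all Klr genes together had 785 to 1731 counts per library.

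Of the 23 detected genes, 19 had enough counts per library to be tested, and the strains differed in both directions. In C3H, 8 genes were lower and 4 were higher (edgeR quasi-likelihood test with the p-value adjusted by Benjamini-Hochberg over 18025 genes, threshold 0.05), and 7 did not pass. Over all genes tested 21.4% were called, 10.1% lower and 11.3% higher. The median log2 fold change, C3H over B6, was -0.55 over the 19 Klr genes and 0.03 over all genes tested. In whole tissue, fewer cells of a type and less RNA per cell cannot be told apart. The values of the 4 libraries of C3H lay wholly above those of B6 for 4 of the 19 tested Klr genes and wholly below for 9. Among all genes tested such separation was found for 24.4%, 12.7% above and 11.7% below.

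**Figure D1:**
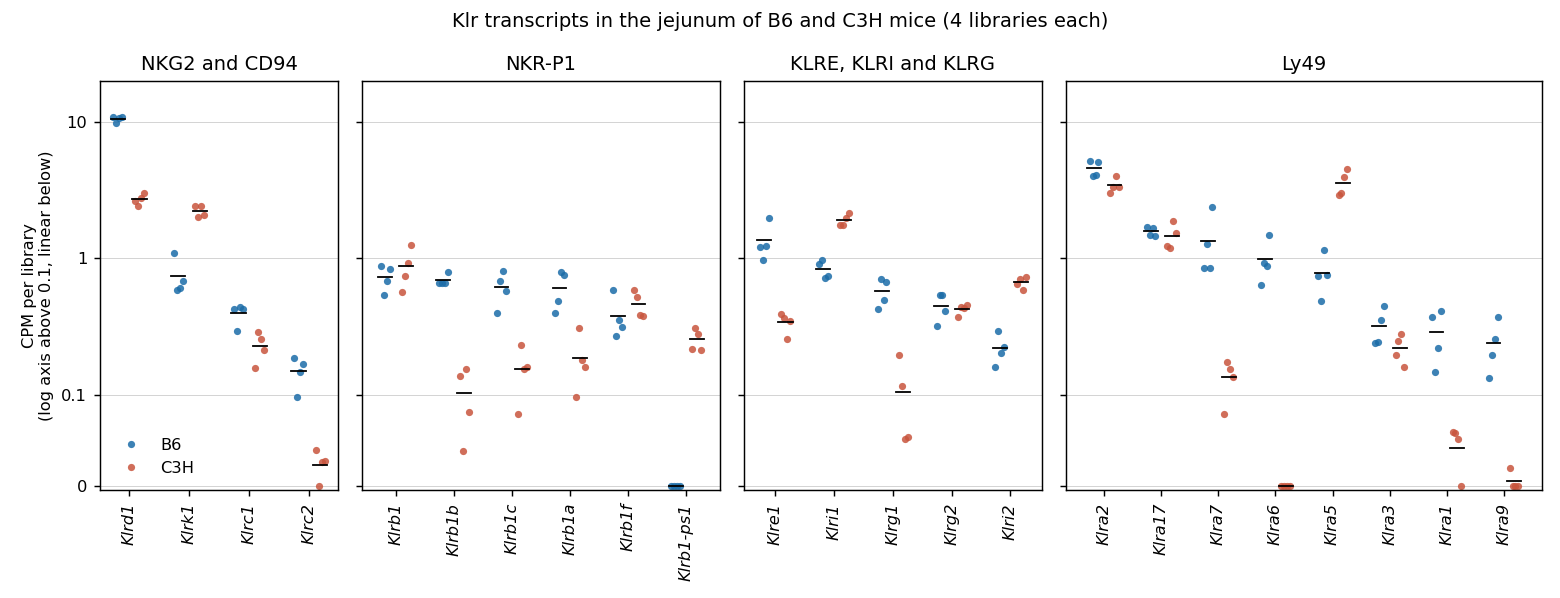
CPM of the 23 detected Klr genes in each library (points: blue, 4 B6 libraries; red, 4 C3H libraries; black bars: means), by receptor family, on an axis that is logarithmic above 0.1 and linear below. Klrd1 led in B6 at 10.6 CPM, Klra5 and Klra2 led in C3H at 3.61 and 3.44 CPM, Klra6 was at 0 in all C3H libraries and Klrb1-ps1 at 0 in all B6 libraries.

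Klrd1 (ENSMUSG00000030165), which encodes CD94, the shared partner of the NKG2 chains, was the most abundant Klr gene of the B6 jejunum and was 3.90-fold lower in C3H. It had 412, 400, 575 and 590 counts in B6 2, 3, 4 and 5, and 135, 126, 109 and 112 counts in C3H 1, 3, 4 and 5. The highest C3H library thus held 135 counts and the lowest B6 library 400. The means were 10.6 ± 0.543 CPM in B6 and 2.72 ± 0.247 CPM in C3H (SD, n = 4 each), a log2 fold change of -1.96 with a standard error of 0.11 (edgeR adjusted p = 2.92e-07).

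Klrk1 (ENSMUSG00000030149), which encodes NKG2D and directly follows Klrd1 in the annotated order of Klr genes, went the other way and was 3.03-fold higher in C3H. Its counts were 41, 24, 33 and 37 in the B6 libraries and 124, 105, 95 and 77 in the C3H libraries. The lowest C3H library stood above the highest B6 library, at 0.744 ± 0.234 against 2.24 ± 0.226 CPM (SD, n = 4 each). The log2 fold change was 1.60 with a standard error of 0.21 (edgeR adjusted p = 0.000222).

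The NKG2 chains themselves were scarce. Klrc1, the inhibitory chain NKG2A, had 16, 12, 24 and 23 counts in B6 against 8, 15, 10 and 8 in C3H. In CPM its B6 values lay just above its C3H values, with 0.294 in the lowest B6 library and 0.288 in the highest C3H library. The log2 fold change of -0.80 (standard error 0.26) did not pass the threshold (edgeR adjusted p = 0.0531). It passed without B6 3, the library with 12 counts, at -0.91 (edgeR adjusted p = 0.0451), within a range of 0.0451 to 0.319 over its alternatives. Klrc2, the activating chain NKG2C, had 4 to 9 counts per B6 library and 0 to 2 per C3H library, too few to pass the filter on low counts, and its C3H values lay below its B6 values. Without the filter it was called lower at a log2 fold change of -2.63 (edgeR adjusted p = 0.00948). Its ratio, C3H over B6, was 0.148 (exact 95% counting interval 0.0378 to 0.424, which covers counting error only). Klrc3 had 4 counts over B6 and 8 over C3H.

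Klre1 (ENSMUSG00000050241) encodes a chain that pairs with KLRI1 into an inhibitory receptor or with KLRI2 into an activating one, so its direction can be set beside those of its partners. Klre1 was 3.95-fold lower in C3H, with 46, 40, 67 and 107 counts in B6 against 20, 19, 10 and 13 in C3H. Its log2 fold change was -1.98 (standard error 0.26, edgeR adjusted p = 0.000261). The partners were both higher. Klri1 (ENSMUSG00000067610) had 34, 40, 39 and 40 counts in B6 against 90, 91, 78 and 80 in C3H, a 2.29-fold difference (log2 1.20, standard error 0.17, edgeR adjusted p = 0.000362). Klri2 (ENSMUSG00000043932) had 6, 12, 11 and 12 counts in B6 against 33, 37, 23 and 27 in C3H, a 3.01-fold difference (log2 1.59, standard error 0.23, edgeR adjusted p = 0.000470). None of the 3 genes overlapped between strains. Gm156, which RefSeq names Klrh1 and which the choice by GENCODE symbol left out, had 184 B6 counts and 778 C3H counts (log2 fold change 2.14, standard error 0.19, edgeR adjusted p = 1.11e-05).

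Klrg1 (ENSMUSG00000030114), an inhibitory receptor for cadherins that marks antigen-experienced T and NK cells, was 5.15-fold lower in C3H. It had 16, 29, 27 and 36 counts in B6, against 10, 6, 2 and 2 in the C3H libraries (log2 fold change -2.36, standard error 0.37, edgeR adjusted p = 0.000839). C3H 1 held 10 of the 20 C3H counts, and over the 6 libraries that remain without it and B6 2 the log2 fold change was -2.98. Klrg2 had 12 to 29 counts per library in B6 and 17 to 23 in C3H, with a log2 fold change of -0.09 that did not pass (standard error 0.23, edgeR adjusted p = 0.826).

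Among NKR-P1 genes, Klrb1a, Klrb1b and Klrb1c were lower in C3H, and Klrb1 and Klrb1f did not pass. Coding identity was 92.6% between Klrb1a and Klrb1c, while Klrb1b had 85.2% with Klrb1a and 87.0% with Klrb1c. Klrb1b (ENSMUSG00000079298), an inhibitory receptor for the product of Clec2d, had 25, 27, 36 and 43 counts in B6 against 7, 2, 6 and 3 in C3H. This was a 6.78-fold difference (log2 -2.76, standard error 0.32, edgeR adjusted p = 9.76e-05). Klrb1c (ENSMUSG00000030325), the activating receptor known in B6 mice as NK1.1, had 15, 28, 44 and 31 counts in B6 against 4, 12, 6 and 6 in C3H. It was 3.95-fold lower (log2 -1.98, standard error 0.34, edgeR adjusted p = 0.00140). Klrb1a (ENSMUSG00000030361), an activating receptor, had 15, 20, 43 and 41 counts in B6 against 5, 16, 7 and 6 in C3H, and was 3.27-fold lower (log2 -1.71, standard error 0.36, edgeR adjusted p = 0.00533). In raw counts C3H 3 reached 16 for Klrb1a and 12 for Klrb1c, and in CPM none of the 3 genes overlapped between strains. Without the 4 libraries richest in pancreatic transcripts the log2 fold changes were -2.52 for Klrb1a and -2.61 for Klrb1c.

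Klrb1, whose product NKR-P1G is a receptor for the product of the gut lectin gene Clec2h, had 22 to 45 counts per B6 library and 29 to 47 per C3H library. Its log2 fold change was 0.23 (standard error 0.26, edgeR adjusted p = 0.594). Klrb1f had 11 to 22 counts in B6 and 14 to 30 in C3H, with a log2 fold change of 0.33 (standard error 0.28, edgeR adjusted p = 0.459). Both genes overlapped between strains. The pseudogene Klrb1-ps1 had 0 counts in each B6 library and 11, 16, 11 and 8 in the C3H libraries. It did not pass the filter on low counts and was called higher without it (edgeR adjusted p = 4.47e-05). Against a floor of 3 counts over the B6 libraries it was at least 15.9-fold higher in C3H. Klrb1b and Klrb1c overlap the gene model Gm44511 on the same strand, which had 0 counts, and Klrb1f overlaps Gm43992 and Gm44000 on the opposite strand, with 0 and 3 counts in all.

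The Ly49 genes held the most extreme differences. Klra6 (ENSMUSG00000061769), which encodes the inhibitory receptor Ly49F, had 24, 38, 48 and 80 counts in the B6 libraries and 0 in all 4 C3H libraries. Against a floor of 3 counts over the C3H libraries it was at least 60.9-fold lower in C3H (edgeR adjusted p = 8.81e-05). Its neighbour Klra5 (ENSMUSG00000030173), which encodes Ly49E, an inhibitory receptor known from intraepithelial T cells, was 4.51-fold higher in C3H. Klra5 had 28, 20, 62 and 41 counts in B6, against 149, 156, 155 and 169 in the C3H libraries (log2 fold change 2.17, standard error 0.25, edgeR adjusted p = 8.35e-05). The lowest C3H library of Klra5 stood above its highest B6 library.

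Klra7 (ENSMUSG00000067599), which encodes the inhibitory receptor Ly49G, was 9.89-fold lower in C3H. Its counts were 32, 52, 46 and 128 in B6 and 4, 9, 6 and 5 in C3H (log2 fold difference -3.31, standard error 0.43, edgeR adjusted p = 0.000221). B6 5 held the highest value of Klra7, at 2.38 CPM beside 0.850 to 1.27 CPM in the other B6 libraries, and B6 5 was also the highest B6 library for Klra6, Klre1, Klra9, Klra3 and Klra1. Without B6 5 the log2 fold change of Klra7 was -2.86. Klra9, which encodes Ly49I, had 5, 8, 14 and 20 counts in B6 against 1, 0, 0 and 0 in C3H. The ratio, B6 over C3H, was 45.2, with an exact 95% counting interval of 7.73 to 1824. Klra1, which encodes Ly49A, had 6 to 22 counts per B6 library and 0 to 3 per C3H library, a ratio, C3H over B6, of 0.154 (exact 95% counting interval 0.0633 to 0.325). Neither Klra9 nor Klra1 passed the filter on low counts, and the strains did not overlap in either. Without that filter both were called lower, Klra9 at a log2 fold change of -4.94 (edgeR adjusted p = 0.000112), a value that depends on the prior count, and Klra1 at -2.66 (edgeR adjusted p = 0.00188).

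The other 3 tested Ly49 genes, Klra2, Klra17 and Klra3, did not pass the threshold. Klra2, which encodes Ly49B, a receptor known from myeloid cells, had 196, 163, 221 and 276 counts in B6 against 155, 175, 158 and 124 in C3H. Its log2 fold change was -0.42 (standard error 0.14, edgeR adjusted p = 0.0530), and it passed under 7 of the 19 alternatives, among them without B6 3 (-0.48), without B6 4 (-0.48) or without C3H 4 (-0.51); over its alternatives the adjusted p ran from 0.0223 to 0.382. Klra17, which encodes Ly49Q, a receptor known from plasmacytoid dendritic cells, had 61 to 91 counts in B6 and 57 to 74 in C3H (log2 -0.12, standard error 0.18, edgeR adjusted p = 0.684), and it overlaps the gene models Gm17631 and Gm44248 on the opposite strand. Klra3, which encodes Ly49C and is nearly identical to Klra9 in coding sequence, had 9 to 24 counts in B6 and 6 to 13 in C3H (log2 -0.55, standard error 0.30, edgeR adjusted p = 0.229). All 3 overlapped between strains. The activating members Klra4 (Ly49D) and Klra8 (Ly49H) had 1 to 2 and 2 to 4 counts per B6 library, and 0 and 1 counts over all C3H libraries. For Klra8 the ratio, B6 over C3H, was 11.5 (exact 95% counting interval 1.71 to 494), and it was called lower without the filter on low counts (edgeR adjusted p = 0.0456). Klra10 (Ly49J) had 6 counts over B6 and 0 over C3H.

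**Figure D2:**
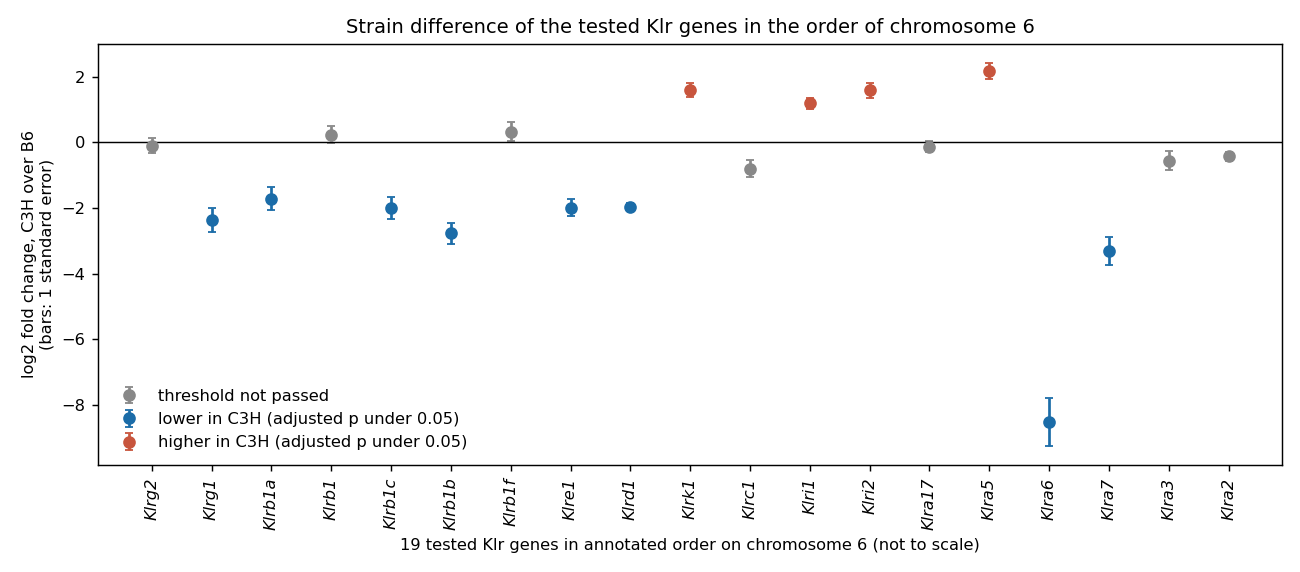
Log2 fold change, C3H over B6, of the 19 tested Klr genes in their annotated order on chromosome 6 (points; bars: 1 standard error; red, higher in C3H; blue, lower; grey, threshold not passed; distances not to scale). Among the genes shown, the direction of called genes changes at 2 places, between Klrd1 at -1.96 and Klrk1 at 1.60 and between Klra5 at 2.17 and Klra6. The C3H libraries of Klra6 are all at 0, and its plotted -8.51 depends on the prior count. Klrb1-ps1 and Klrc2, which did not pass the filter on low counts and differ against the run around them, are not shown.

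Along chromosome 6 the genes called in the main fit lay in 3 runs of 1 direction. These were 6 lower (Klrg1 to Klrd1), then 4 higher (Klrk1 to Klra5), then 2 lower (Klra6 and Klra7). The runs depend on the filter on low counts. Without it Klrb1-ps1, inside the run of 6 lower genes, was called higher (edgeR adjusted p = 4.47e-05). Klrc2, inside the run of 4 higher genes, was then called lower (edgeR adjusted p = 0.00948). Klrb1a, Klrb1c and Klrb1b were lower, with Klrb1 between them not past the threshold. Klre1 and Klrd1 were lower and stand beside Klrk1, which was higher. Klri1 and Klri2 were higher, Klra17 beside them did not pass, Klra5 was higher, and Klra6 and Klra7 were lower. Of the 4 genes higher in C3H, 1 (Klrk1) had only 50-base words of its own, and so had 2 of the 8 lower genes (Klrd1 and Klrg1) and 5 of the 7 that did not pass. Both directions were found among genes without a shared 50-base word.

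**Figure D3:**
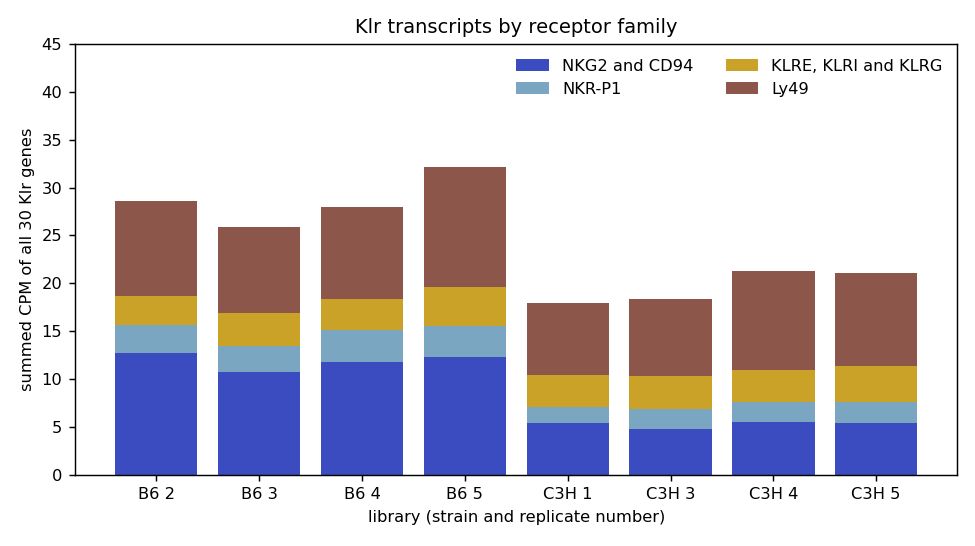
Summed CPM of all 30 Klr genes in each of the 8 libraries, stacked by receptor family. The 4 B6 libraries stand at 25.9 to 32.2 CPM and the 4 C3H libraries at 17.98 to 21.3 CPM, and most of the gap lies in the NKG2 and CD94 part.

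Summed over all members, Klr transcripts took 28.6 ± 2.62 CPM in B6 and 19.7 ± 1.76 CPM in C3H (SD, n = 4 each), without overlap. The NKG2 and CD94 genes summed to 11.9 ± 0.83 CPM in B6 and 5.25 ± 0.344 in C3H (SD, n = 4 each), in which Klrd1 had the largest part. NKR-P1 genes summed to 3.04 ± 0.317 CPM in B6 and 2.04 ± 0.247 in C3H (SD, n = 4 each), and Ly49 genes to 10.3 ± 1.60 and 8.92 ± 1.34 (SD, n = 4 each), where the strains overlapped. For Klre1, Klri1, Klri2, Klrg1 and Klrg2 the sums were 3.44 ± 0.440 and 3.45 ± 0.188 CPM (SD, n = 4 each), although 4 of these 5 genes differed, 2 in each direction. No test was made on these sums.

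The make-up of the Klr counts differed more than their sum. Klrd1 took 37.1% ± 1.99 of all Klr counts in B6 and 13.8% ± 0.803 in C3H (SD, n = 4 each). Klra5 took 2.74% ± 0.953 in B6 and 18.2% ± 2.48 in C3H, and Klrk1 2.60% ± 0.805 and 11.4% ± 1.55 (SD, n = 4 each). The share of Klra2 was 16.0% ± 1.52 and 17.5% ± 1.43 (SD, n = 4 each), within the spread of the libraries. On a scale of CPM per kilobase of annotated exon, which allows levels of different genes to be compared, B6 was led by Klrd1 at 8.26 ± 0.424, followed by Klra2 at 2.43 ± 0.344, Klra17 at 1.33 ± 0.102 and Klra7 at 1.06 ± 0.570 (SD, n = 4). The B6 libraries of Klrd1 and Klra2 did not overlap, while Klra17 and Klra7 did. On the same scale C3H was led by Klra5 at 2.58 ± 0.560, Klri1 at 2.28 ± 0.230, Klrd1 at 2.12 ± 0.193 and Klra2 at 1.81 ± 0.223 (SD, n = 4), and each of these overlapped with the next. Klrk1 ranked 20 in B6 and 8 in C3H among the 30 genes on this scale, at 0.104 ± 0.0326 in B6 and 0.311 ± 0.0315 in C3H (SD, n = 4 each), with an annotated exon length of 7183 bases that counts every isoform.

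T cell transcripts were lower in C3H, as were 8 of the Klr genes. Of 14 tested markers of T cells and CD8 intraepithelial lymphocytes, 13 were lower in C3H and 0 higher, with a median log2 fold change of -0.94. Over all genes tested 10.1% were lower and 11.3% higher. The 4 CD3 chain genes Cd3d, Cd3e, Cd3g and Cd247 summed to 48.8 to 61.4 CPM in B6 and 23.6 to 35.8 CPM in C3H, and each was lower, with log2 fold changes of -0.88 to -1.15. Cd8a and Cd8b1 had log2 fold changes of -0.80 and -2.01. Trbc2 (-1.38), Trac (-1.40) and Cd244a (-0.99) were lower as well. All 7 tested cytotoxic granule genes were lower, with a median of -1.13. Among them were Gzmk (-3.16), Ccl5 (-1.68), Gzma (-1.32), Gzmb (-1.13) and Prf1 (-1.10). The part of T cell number in the Klr differences was not tested. The size of each Klr difference can be set against that of CD3 transcripts, by a second fit in which each library was scaled by its CD3 sum.

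Relative to CD3 transcripts, 7 of the 19 tested Klr genes were lower in C3H and 9 were higher. In that fit 91.8% of all genes were called, 90.0% higher and 1.80% lower, with a median log2 fold change of 1.06. The count of higher Klr genes is therefore no result about them. The 7 lower genes were Klra6, Klra7 at -2.24 (standard error 0.40), Klrb1b at -1.74 (0.38), Klrg1 at -1.32 (0.42), Klrd1 at -0.95 (0.19), Klrb1c at -0.94 (0.37) and Klre1 at -0.94 (0.30), with edgeR adjusted p from 3.00e-06 to 0.0243. Klrb1c lost the call without B6 4 (-0.76), C3H 1 (-0.74), C3H 4 (-0.93) or C3H 5 (-0.84). Klrg1 lost it without the 4 libraries richest in pancreatic transcripts (-0.98, edgeR adjusted p = 0.109). Klrb1a (-0.65, edgeR adjusted p = 0.117), Klrc1 (0.23, edgeR adjusted p = 0.516) and Klra3 (0.50, edgeR adjusted p = 0.180) did not pass. Klrb1a passed without C3H 3 (-1.15), without the pancreas-rich libraries, and with Cd8a and Cd8b1 or with Ptprc in place of CD3. Klra3 passed without C3H 5 (0.71).

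**Figure D4:**
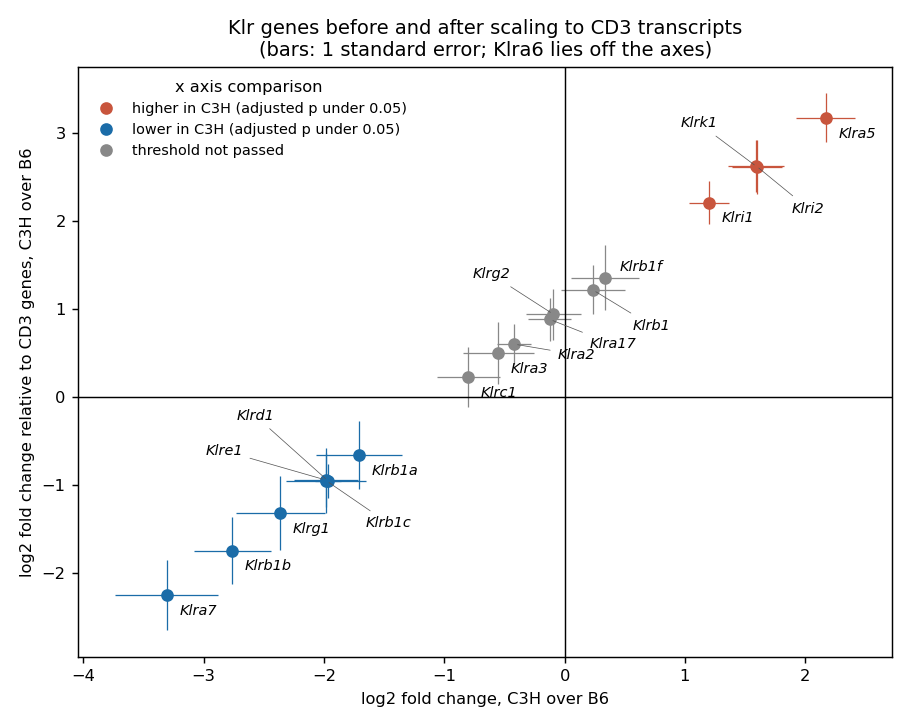
Log2 fold change, C3H over B6, before (x axis) and after (y axis) scaling each library to its summed CD3 transcripts, for 18 tested Klr genes (points; bars: 1 standard error; colours: call on the x axis; Klra6 lies off the axes). Klra5 stands highest on both axes at 2.17 and 3.17, and Klra7 lowest at -3.31 and -2.24.

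The 4 genes higher in C3H without that scaling were higher with it too, in a fit that moved the median of all genes from 0.03 to 1.06. The scaling acts on all genes of a library alike, so these 4 calls add no support to the main fit. Klra5 had a log2 fold change of 3.17 relative to CD3 (standard error 0.28), Klri2 of 2.63 (0.30), Klrk1 of 2.61 (0.30) and Klri1 of 2.21 (0.24), all beyond the all-gene median of 1.06. The other genes called higher relative to CD3 were Klra2, Klra17, Klrg2, Klrb1 and Klrb1f, with 0.60 to 1.36, values around that median. Klra2 lost this call without B6 3, B6 4 or C3H 4. With Ptprc, the pan-leukocyte gene, in place of CD3, 5 Klr genes were called higher and Klra2 was at -0.0025. The share of all genes called in that fit is not given here, so this count is no result about Klr genes. Ptprc itself had 67.4 ± 5.93 CPM in B6 and 49.9 ± 2.40 in C3H (SD, n = 4 each).

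Markers of NK cells and type 1 innate lymphoid cells differed in both directions. Of 7 tested, 2 were higher in C3H, 1 was lower and 4 did not pass, with a median log2 fold change of 0.05. Among all genes tested 11.3% were higher and 10.1% lower, and beside those shares counts this small say little about the list. Ncr1, which encodes the NK cell receptor NKp46, was higher, with 9, 6, 13 and 15 counts in B6, against 72, 58, 55 and 47 in C3H. Its log2 fold change was 2.49 (standard error 0.22, edgeR adjusted p = 1.30e-05). Xcl1, a chemokine of NK and T cells, was also higher, on 272 B6 and 563 C3H counts (log2 1.15, standard error 0.19, edgeR adjusted p = 0.00145). Zfp683, which encodes the residency factor Hobit, was lower, with 53 and 10 counts (log2 -2.27, standard error 0.49, edgeR adjusted p = 0.00649). Eomes, which encodes a factor that defines conventional NK cells, had 25 counts in B6 and 12 in C3H and was not tested. The NK marker sum ran from 37.6 to 40.3 CPM in B6 and from 42.2 to 44.5 in C3H. Each C3H library thus stood above each B6 library, and no test was made on this sum. Most of the sum came from Il2rb and Itga2, which overlapped between strains and did not pass (log2 0.13 and 0.05). Of the 7 tested markers, 2 lay wholly above in C3H, 2 wholly below and 3 overlapped. Tbx21, 1 of those below, did not pass (log2 -0.43, edgeR adjusted p = 0.0578). The part of these markers in the Klr differences was not tested. Among macrophage markers, 1 of 3 (Csf1r) was higher, at a log2 fold change of 0.35, and of the 3 B cell markers none passed, with sums of 5.78 to 27.5 CPM in B6 and 5.99 to 13.4 in C3H. None of 10 pancreatic acinar genes passed, although their sum ran from 0.314 to 225.2 CPM in B6 and from 0.471 to 2798 in C3H, with B6 2, B6 3, C3H 3 and C3H 5 richest. All 12 Klr calls kept their direction and their side of the threshold with those 4 libraries left out. That fit holds only B6 4 and B6 5 against C3H 1 and C3H 4. Whether a call lost there reflects fewer libraries or pancreatic transcripts was not tested.

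**Figure D5:**
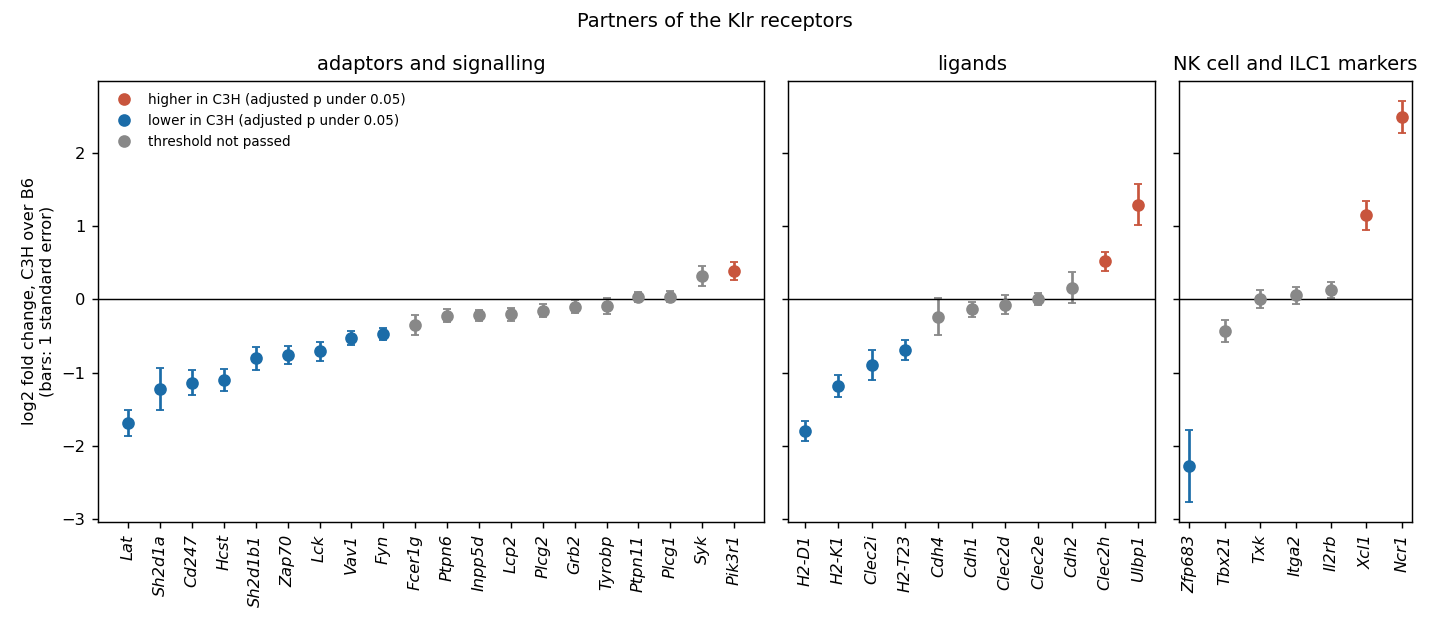
Log2 fold change, C3H over B6, of 20 tested adaptor and signalling genes, 11 tested ligand genes, and 7 tested NK cell and innate lymphoid markers (points; bars: 1 standard error; red, higher in C3H; blue, lower; grey, threshold not passed). Hcst stands at -1.10 and Tyrobp at -0.10, H2-D1 at -1.80 and Ulbp1 at 1.29, and Ncr1 at 2.49.

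Of 20 tested adaptor and signalling genes, 9 were lower in C3H, 1 (Pik3r1) was higher and 10 did not pass, with a median log2 fold change of -0.29. The shares over all genes tested were 10.1% lower and 11.3% higher. Hcst, the DAP10 adaptor of NKG2D, was 2.14-fold lower, with 96, 113, 125 and 170 counts in B6, against 60, 60, 56 and 48 in C3H (log2 -1.10, standard error 0.15, edgeR adjusted p = 0.000354). It thus went opposite to Klrk1. Tyrobp, the DAP12 adaptor of activating Ly49 receptors, which myeloid cells also carry, had 24.5 ± 2.23 CPM in B6 and 22.96 ± 3.24 in C3H (SD, n = 4 each) and did not pass (log2 -0.10, standard error 0.11, edgeR adjusted p = 0.595). Lat (-1.69), Cd247 (-1.14), Zap70 (-0.76) and Fyn (-0.47), genes of T cell receptor signalling that NK cells share in part, were lower. Fyn lost the call without the 4 libraries richest in pancreatic transcripts (-0.51, edgeR adjusted p = 0.0974). The single higher gene, Pik3r1, at 0.39, lost its call without B6 2, B6 3, B6 5 or any 1 C3H library.

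Of 11 tested ligand genes, 4 were lower in C3H, 2 were higher and 5 did not pass, with a median of -0.13. For all genes tested the shares were 10.1% lower and 11.3% higher, and the count of 2 higher says little beside them. H2-T23, whose product Qa-1 is the ligand of CD94 with NKG2 chains, was 1.62-fold lower, at 533 ± 57.9 CPM in B6 and 329 ± 59.0 in C3H (SD, n = 4 each, log2 -0.69, standard error 0.14, edgeR adjusted p = 0.00356). H2-T23 lost the call without the 4 libraries richest in pancreatic transcripts (edgeR adjusted p = 0.0801), at a log2 fold change of -0.70, nearly the same, on fewer libraries. H2-K1 (-1.18) and H2-D1 (-1.80), the classical class I genes read by Ly49 receptors, were lower too. The strains carry different alleles of these genes, and C3H reads were aligned to the B6 genome. What this does to the class I counts was not tested. Ulbp1, which encodes the NKG2D ligand MULT1, was 2.45-fold higher in C3H, with 64, 41, 67 and 41 counts in B6, against 214, 136, 105 and 70 in C3H (log2 1.29, standard error 0.28, edgeR adjusted p = 0.00709). The other NKG2D ligands in the table were scarce: Raet1e had 32 and 30 counts, Raet1d 3 and 6, H60b 1 and 1, and H60c 0.

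The Clec2 ligands of NKR-P1 receptors split. Clec2h was abundant and 1.44-fold higher in C3H, at 901 ± 44.7 CPM in B6 and 1295 ± 202 in C3H (SD, n = 4 each, log2 0.52, standard error 0.13, edgeR adjusted p = 0.0134). Clec2h lost the call without C3H 3 (0.51, edgeR adjusted p = 0.0558) and without the 4 libraries richest in pancreatic transcripts (0.40, edgeR adjusted p = 0.444). Clec2i was lower (-0.89), while Clec2d (-0.07) and Clec2e (0.00) did not pass. Beside the Klr genes lie other C-type lectin genes of the same complex. Of 10 tested, 2 were higher, 2 were lower and 6 did not pass, with a median of 0.05. Beside 11.3% higher and 10.1% lower over all genes tested, these small counts say little about the list. Of the 4 that passed, 3 are Cd69 (-0.83), Clec2h and Clec2i. The fourth was Clec9a, a dendritic cell receptor, which was higher at 1.35. Clec2i and Cd69 lost the call without the 4 libraries richest in pancreatic transcripts (-0.67 and -0.51, edgeR adjusted p = 0.234 and 0.325).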

How the data were processed

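Bulk RNA of 8 jejunum libraries (4 B6, 4 C3H) was measured. Per the labels' protocols, a Qiagen miRNeasy kit gave the RNA, and libraries came from the Illumina Stranded mRNA kit. The authors deposited raw counts per Ensembl gene; STAR 2.7.9a, HTSeq 2.0.2 and GRCm39 are named in the submitters' processing notes. The annotation release is not given in the sources used here, nor is the strand setting or the rule for reads with several matches. Symbols, gene order, exon lengths and transcript sequences came from GENCODE M21 (GRCm38, not the build of the counts), in which 51948 of 56941 identifiers had a symbol; printed coordinates are GRCm38. The members and gene lists were chosen with earlier results of these data known.

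Counts were fitted over the whole table in edgeR 4.0.16 (R 4.3.3) by the quasi-likelihood F test, after filterByExpr by strain (minimum count 10) and TMM scaling; p-values were adjusted by Benjamini-Hochberg across 18025 genes, with a threshold of 0.05. CPM used TMM-scaled libraries. The standard error is the absolute log2 fold change over the square root of F. A second fit scaled each library by its summed CPM of Cd3d, Cd3e, Cd3g and Cd247; it is not a normalization. A gene with 0 counts in a strain got a bound at 3 counts over that strain, and intervals are exact at 95%; both cover counting error only. Named were all Klr genes with 20 or more counts and, of each list, up to 5 called genes with the smallest adjusted p. Hcst, Tyrobp, H2-T23, Ncr1, Eomes and the CD3 and CD8 genes were named as well. Other genes were named after their values were seen or as counts of 5 or fewer. These were the Klr genes under 20 counts, the enterocyte genes, Gm156, the Raet1 and H60 genes, Ulbp1, Clec2d and Clec2e. Ptprc, Pik3r1, Csf1r, Il2rb, Itga2 and Tbx21 were also among them. Alternatives were DESeq2 1.42.0, limma 3.58.1 (voom), other scalings, filters, thresholds and offsets, a replicate block and leaving out libraries. Within strains, pairs of libraries differed by a chi-square per degree of freedom of at least 21.2, so none was a copy at counting noise. The fit was tested on simulated data. The enterocyte list gave 0 calls of 5.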

Additional observations from a re-analysis of the deposited data

Results flagged for a closer look

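In 44 groups of 4 libraries (each detected Klr gene with counts in each strain), 4 had a library whose gap to the nearest other exceeded Dixon's 95% value for the share of the group's range; chance gives about 1 in 20 groups. Klrc1 was low in B6 3, at 0.294 CPM (12 counts). Klrb1b was high in B6 5, at 0.799 CPM (43 counts), beside 0.662 to 0.665 in the other B6 libraries. Klra9 had its only C3H count in C3H 1, at 0.0196 CPM, and a single count in 4 libraries exceeds that value whatever its size. Klra1 was at 0 in C3H 5, the only C3H library without a count.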

How the results depend on the processing

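The 12 Klr calls (8 lower, 4 higher) numbered 12 to 15 with each library left out in turn, 8 to 10 lower and 4 to 5 higher. Without the filter on low counts 13 genes were lower, with Klra9, Klrc2, Klra1, Klra8 and Klra2 added, and with a mean of at least 100 counts, which left Klrd1 and Klra2 to be tested, 1 was called, lower, and 0 higher. Of 344 single-gene fold changes under alternatives, 335 kept their direction and side of the threshold and 9 (Klra2 in 7, Klrc1 in 2) newly passed. Relative to CD3 genes, 14 to 17 were called with each library left out, 8 to 11 higher and 6 to 8 lower. With Ptprc as the reference 5 were higher, a count without the share over all genes. Of 228 gene values 210 stayed, 12 lost and 5 gained the call, and 1 reversed, Klra2 with Ptprc at -0.0025. The 1 adaptor gene called higher fell to 0 with DESeq2 size factors, without the filter, with 6 libraries, with the threshold of 0.01 and without the pancreas-rich libraries, and 0 to 1 with each library left out (8 to 11 lower). Ligands called higher were 1 with the mean of at least 100 counts, the threshold of 0.01 or the pancreas-rich libraries left out, and 1 to 2 with each library left out; 2 were lower without the pancreas-rich libraries. Other lectins called lower were 0 with the mean of at least 100 counts or without the pancreas-rich libraries, where 1 was higher, as with the threshold of 0.01 and in the range of 1 to 2 with each library left out. The cause was not tested. The detection limit gave 25 genes at 10 counts and 20 at 50. Relative to CD3 genes, leaving out the pancreas-rich libraries and the block were chosen after seeing the data.

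Replicate numbers 3, 4 and 5 are shared by both strains, and same-numbered libraries correlated at 0.109, 0.136 and -0.044 in their deviations. Libraries with different numbers correlated at -0.141 to 0.031. So few values cannot decide whether the numbers pair libraries. Over those 6 libraries 12 Klr genes were called with and without the replicate block; relative to CD3 genes the block gave 15, without Klrb1c (-0.86).

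Most members had under 100 counts per library, which limits what can be tested: 11 of 30 genes were not, and Ly49 copies that C3H may carry beyond the reference are not analysed here.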
